A study of Mus musculus with 18 samples.

Results

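Matrix metalloproteases (MMPs), ADAMTS proteases and the tissue inhibitors of metalloproteases (TIMPs) were followed across 18 mouse RNA-sequencing libraries. The genes were taken by symbol alone, as every numbered Mmp, Adamts and Timp gene, and this gave 46 genes: 23 MMPs, 19 ADAMTS genes and 4 TIMPs. All 46 were found among the 55401 identifiers of the endothelial table and among the 22612 lines of the EO771 table. A mean value of at least 10 was reached by 34 of the 46 genes in the endothelial libraries and by 19 in the EO771 libraries, and only these were tested.

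The study asked how tumour cells use high endothelial venules, the vessels through which lymphocytes enter lymph nodes. BEC normal were blood endothelial cells sorted from the mammary fat pad, and BEC tumour were blood endothelial cells sorted from EO771 tumours. HEC normal were high endothelial cells of lymph nodes without tumour, and HEC tumour came from nodes whose tissue the labels give as lymph node metastases. EO771, a mouse breast cancer cell line, was cultured with vehicle or with 12-HETE, a lipid made by the lipoxygenase ALOX12. By the methods of the study the mice were wild-type C57BL/6 females, the endothelial cells were CD45-negative and high in CD31, and HECs were those that also carried the carbohydrate epitope PNAd. Fat pad, tumour and lymph node were digested with different enzymes, so cell type, tissue and digestion cannot be told apart. The change with tumour in BECs likewise sets fat pad against tumour tissue, whereas both HEC groups came from lymph nodes. Each of the 6 groups had 3 libraries, which the legends of the study describe as independent experiments. The labels do not tie libraries to animals or cultures, so p-values measure the spread between these libraries.

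Endothelial totals ran from 56.4 to 79.4 M, in values that rise in steps of about 3.70, and EO771 totals from 17.3 to 18.6 M. Between libraries of a group the median chi-square over genes, with endothelial values divided by their step, was 2.78 to 10.1 times what counting noise gives in the endothelial groups, 8.07 to 26.7 times in EO771 vehicle and 1.75 to 1.98 times in EO771 12-HETE. Of the markers of high endothelium, Glycam1 had 39129 to 71579 normalised counts in the HEC libraries and 0 in every BEC library, whereas Madcam1, Ackr1 and Ccl21a were at 0 in every HEC normal library. Chst4, another marker, stood at 4.07 in HEC normal 2 against 19906 and 20205 in HEC normal 1 and 3, and Fut7 at 14255 in HEC tumour 3 against 66477 and 65523. Each library was left out in turn, these 2 included.

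MMPs are zinc-dependent enzymes that cut collagens, other matrix proteins and many secreted or cell-surface proteins. Most are secreted as inactive precursors, while the membrane-type MMPs stay tethered to the cell surface. ADAMTS proteases are secreted relatives that cut proteoglycans such as versican and aggrecan, trim procollagens or, for ADAMTS13, cut von Willebrand factor. TIMPs bind the active site of MMPs, and TIMP3, which stays in the matrix, also inhibits several ADAMTS proteases. In blood vessels these enzymes are known for remodelling the basement membrane when vessels sprout and when leukocytes or tumour cells cross the wall. The libraries measured transcripts, which do not give protein or enzyme activity.

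A cluster on chromosome 9 holds 10 of the MMP genes, from Mmp13 to Mmp7. In BECs some of these genes rose with tumour and others fell, so the 100 bases before their start sites are shown for the 7 of them that were tested. Genome build GRCm38.p6 and RefSeq gave the sequences, which are written 5′ to 3′ on the plus strand, the strand of these genes. Capitals mark TGAGTCA or its reverse complement TGACTCA, the letters of the classical binding motif of the AP-1 transcription factors.
Mmp13 (chr9:7272414-7272513): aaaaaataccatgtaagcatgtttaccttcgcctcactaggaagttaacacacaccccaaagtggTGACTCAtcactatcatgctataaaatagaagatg
Mmp12, later start (chr9:7347274-7347373): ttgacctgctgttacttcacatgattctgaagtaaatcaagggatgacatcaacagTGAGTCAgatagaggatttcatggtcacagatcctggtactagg
Mmp3 (chr9:7445722-7445821): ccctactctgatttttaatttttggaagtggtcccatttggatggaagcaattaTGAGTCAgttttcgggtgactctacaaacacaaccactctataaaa
Mmp1a (chr9:7464041-7464140): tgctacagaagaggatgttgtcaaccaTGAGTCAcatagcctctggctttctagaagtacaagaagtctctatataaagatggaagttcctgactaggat
Mmp10 (chr9:7502242-7502341): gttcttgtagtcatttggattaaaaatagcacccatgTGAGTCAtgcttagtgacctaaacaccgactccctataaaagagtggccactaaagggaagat
Mmp8 (chr9:7558329-7558428): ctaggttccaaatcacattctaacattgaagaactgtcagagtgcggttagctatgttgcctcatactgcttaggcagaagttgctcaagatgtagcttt
Mmp27 (chr9:7571296-7571395): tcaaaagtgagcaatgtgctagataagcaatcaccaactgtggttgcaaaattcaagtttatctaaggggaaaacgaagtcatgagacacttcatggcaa

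The motif was searched on both strands in the 250 bases before each start. It was present for 7 of the 10 clustered genes, the 5 marked above together with Mmp1b and Mmp7, and for 1466 of 32851 promoters in the whole table (4.46%). The cluster was counted by gene, with a match at any start, and the whole table by promoter, so these figures are in unlike units. Of the other 36 genes 22 had a promoter in the table, and none of these 22 held the motif. Mmp8, Mmp27 and Mmp20 had no match in this window, and neither did the earlier start of Mmp12 nor the later start of Mmp7. The genes that fell in BEC tumour (Mmp3, Mmp1a, Mmp10) thus all held the motif. Of those that rose, Mmp13 held it, Mmp12 held it at its later start only, and Mmp8 and Mmp27 did not. Whether the motif has a part in these changes was not tested. A match is only a match of letters.

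Levels between genes were compared as TPM, counts per exon length scaled to the same total in every library. MMP transcripts together reached 405 ± 12.8 TPM in BEC normal and 175 ± 17.9 with tumour, and in HECs 135 ± 1.85 without and 109 ± 4.44 with tumour (SD over 3 libraries). ADAMTS transcripts reached 319 ± 26.5, 82.1 ± 4.25, 92.1 ± 4.82 and 115 ± 2.99 TPM in that order. In BEC normal the most abundant proteases were Adamts1 (168 ± 13.2 TPM) and Mmp2 (137 ± 9.77 TPM). Mmp14 led in BEC tumour (73.6 ± 4.32 TPM) and in HEC normal (78.6 ± 1.41 TPM), and Adamts1 led in HEC tumour (74.5 ± 1.33 TPM). In EO771 cells Mmp24 led with vehicle (260 ± 21.3 TPM) and Mmp14 with 12-HETE (201 ± 6.40 TPM).

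**Figure D1:**
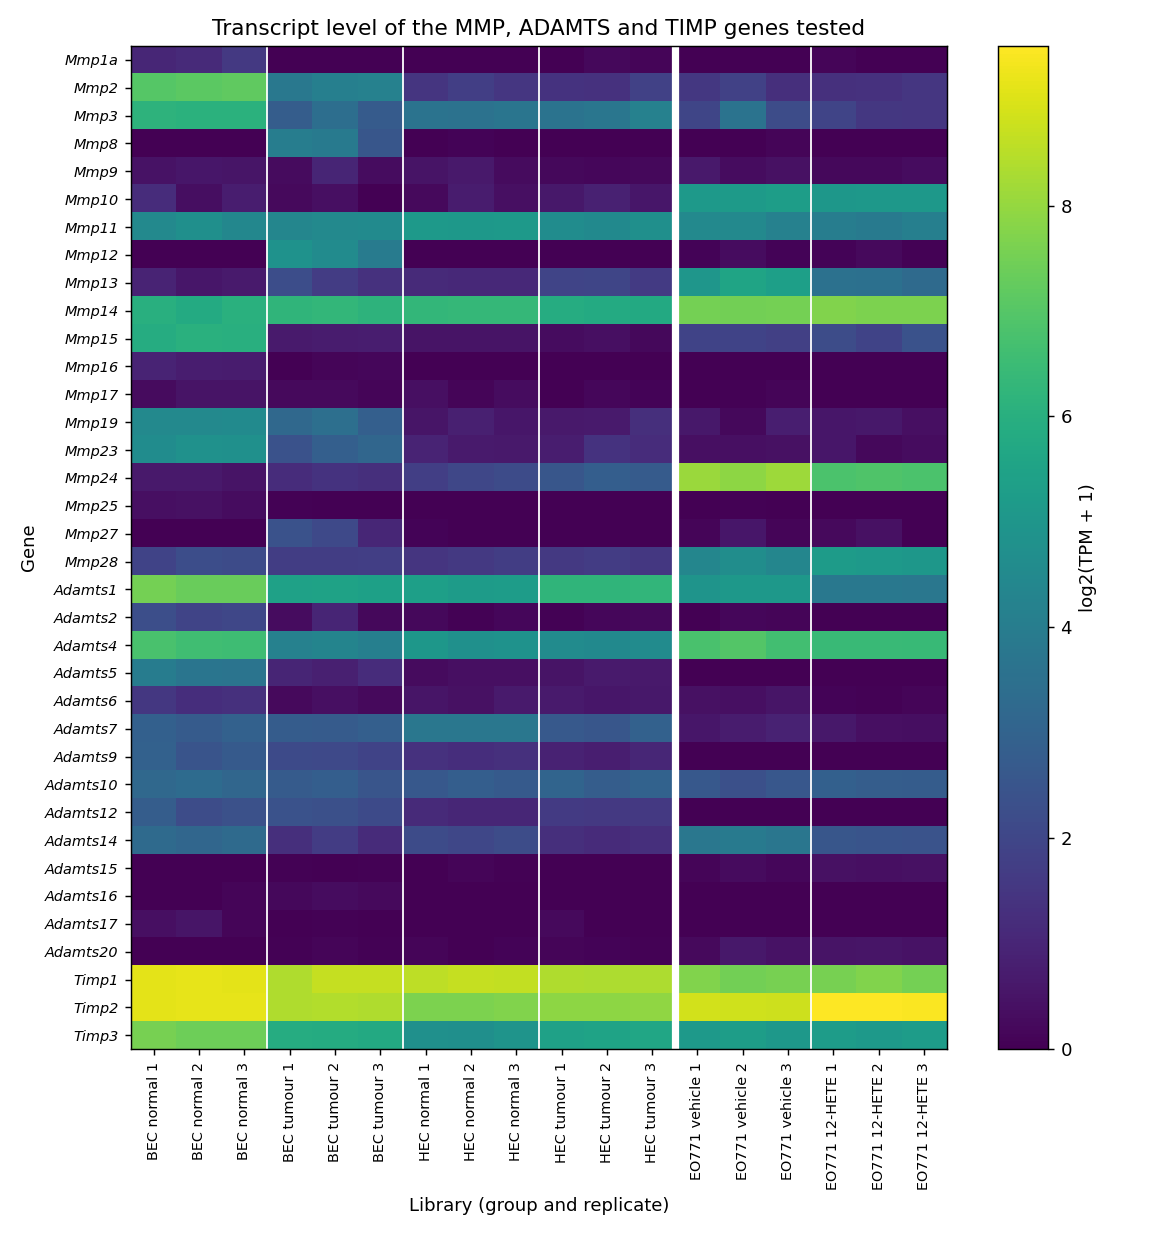
Heat map of log2(TPM + 1) for the 36 genes tested in either table (rows) in each of the 18 libraries (columns, 3 per group, white lines between groups). Adamts1, Mmp2 and the TIMPs are bright in BEC normal, Mmp12, Mmp8 and Mmp27 stand out in the BEC tumour columns, and Mmp24 is brightest in EO771.

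Calls required an adjusted p under 0.05 (DESeq2 Wald test, adjusted over all genes tested) together with a log2 fold change over 1 in size. Against BEC normal, HEC normal had 2 of 34 genes higher and 20 lower, where 17.2% of all 18511 genes tested were higher and 15.2% lower. The median log2 fold change of the 34 genes was −1.71, against 0.00 over all genes. Against BEC tumour, HEC tumour had 3 genes higher and 13 lower (11.3% and 10.8% of all genes), with a median of −0.45 against 0.01. With tumour, BECs had 5 genes higher and 16 lower (12.5% and 10.9% of all genes), with a median of −1.37 against 0.01. HECs had 2 higher and 4 lower with tumour (4.66% and 3.24% of all genes), with a median of 0.00 against 0.02. The endothelial comparisons share libraries, so their counts are not independent of each other.

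The change with tumour itself was compared between the cell types by an interaction, the change in HECs less that in BECs. It was called positive for 14 of 34 genes and negative for 4, against 11.3% and 12.2% of all genes, with a median of 1.03 against 0.00. Of the 14 genes with a positive value, 12 had been called lower with tumour in BECs, and Adamts12 and Adamts17 had not. A fall in BECs itself makes the interaction more positive, so this overlap is in part built into the definition. The like share over all genes is not given here. As BEC tumour and BEC normal differ in tissue and digestion, the interaction cannot tell these apart from a response to tumour. Of the 24 genes with all 4 groups above the floor of 3 steps (11.1 units), 13 had a called interaction. The share of all genes above this floor with a called interaction is not given here, so the 13 have no background.

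**Figure D2:**
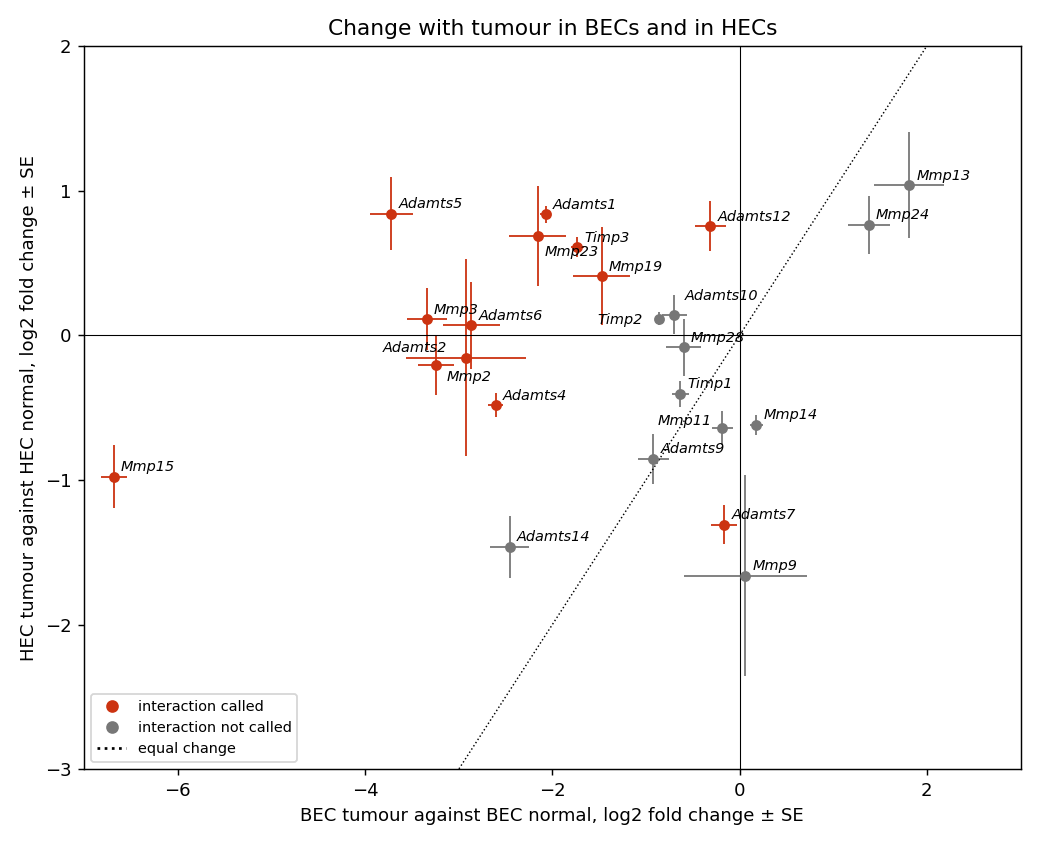
Change with tumour in BECs (horizontal axis) against that in HECs (vertical axis), as log2 fold change ± SE, for the 24 genes above the floor in all 4 endothelial groups. Red points mark the 13 genes with a called interaction. Most of these lie to the left, such as Mmp15 at −6.68 in BECs and −0.98 in HECs, and the dotted line marks equal change.

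The gelatinase Mmp2, which cuts denatured collagen and collagen IV of basement membranes, had 11054, 12550 and 13201 normalised counts in BEC normal and 1072, 1348 and 1463 in BEC tumour. In HEC normal it had 161, 225 and 167, and in HEC tumour 136, 129 and 215. Every BEC normal library was far above every BEC tumour library, and these in turn above all HEC libraries, while the HEC groups overlapped. The log2 fold change was −6.06 ± 0.20 between HEC normal and BEC normal (DESeq2, adjusted p 9.04e-204), −3.02 ± 0.20 between HEC tumour and BEC tumour (3.13e-49) and −3.24 ± 0.19 with tumour in BECs (3.97e-64). In HECs it was −0.21 ± 0.21 with tumour (adjusted p 0.492), and the interaction was 3.04 ± 0.28 (1.09e-25). Mmp9, the other gelatinase, was low throughout, with at most 88.0 normalised counts in any endothelial library.

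Mmp19 and Mmp23 were likewise highest in BEC normal and next in BEC tumour. Mmp19, a protease of basement membrane proteins, had 1949, 2033 and 2105 normalised counts in BEC normal, 722, 889 and 582 in BEC tumour, 43.6, 78.4 and 48.7 in HEC normal and 49.6, 55.3 and 122 in HEC tumour. Its log2 fold change was −5.16 ± 0.32 between HEC normal and BEC normal, −3.28 ± 0.32 (DESeq2, adjusted p 4.31e-23) between HEC tumour and BEC tumour and −1.47 ± 0.31 with tumour in BECs. Mmp23, an MMP without the usual hemopexin domain, had 1446, 1722 and 1666 normalised counts in BEC normal, 245, 368 and 472 in BEC tumour, 58.8, 38.7 and 35.4 in HEC normal and 41.6, 94.7 and 76.4 in HEC tumour. For both genes only the HEC groups overlapped. Its log2 fold changes were −5.19 ± 0.33, −2.35 ± 0.32 (adjusted p 2.65e-12) and −2.16 ± 0.31 in the same 3 comparisons. Neither gene was called with tumour in HECs (0.41 ± 0.34 and 0.69 ± 0.34), and both interactions were called (1.88 ± 0.46 and 2.84 ± 0.46). Tmem198b, which overlaps exons of Mmp19, changed by −0.72 ± 0.20 in HEC normal against BEC normal and −1.10 ± 0.20 with tumour in BECs.

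The summed markers of mural cells and of fibroblasts were also highest in libraries of BEC normal, although single markers differed. The 8 markers of pericytes and smooth muscle summed to 870 to 899 CPM (counts scaled to the same total in every library, with no length correction) in BEC normal, 75.8 to 119 in BEC tumour, 24.2 to 26.3 in HEC normal and 11.4 to 13.5 in HEC tumour. The 8 fibroblast markers summed to 280 to 291, 48.1 to 88.0, 20.2 to 22.3 and 8.92 to 10.6 CPM in the same order. In BEC normal the smooth muscle gene Acta2 made up 621 to 622 CPM of the first sum, Kcnj8 was at 0, and of the fibroblast markers Dpt and Lum were at 0. Against the sums, Dcn, Dpt, Lum, Myh11 and Kcnj8 had a higher mean in BEC tumour than in BEC normal, and the others a lower one. Dcn, for example, averaged 7.16 against 2.63 CPM. Pdgfra and Notch3 averaged 15.9 and 15.5 CPM in HEC normal, near the 16.2 and 17.3 CPM of BEC normal. Both sums were, like Mmp2, Mmp19 and Mmp23, highest in BEC normal and next in BEC tumour, and their part in the result was not tested. In bulk libraries more cells of a type and more RNA per cell cannot be told apart.

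The membrane-type MMPs included the gene with the steepest fall with tumour in BECs among those above the floor in both groups. Mmp15, which encodes MT2-MMP and lies on chromosome 8 (chr8:95352268-95375080 on GRCm38), had 8244, 9395 and 9047 normalised counts in BEC normal and 78.8, 85.4 and 95.0 in BEC tumour. It had 59.8, 59.0 and 63.1 in HEC normal and 31.2, 41.4 and 18.8 in HEC tumour. Only BEC normal was high, and no groups overlapped. The log2 fold change was −6.68 ± 0.14 with tumour in BECs and −7.20 ± 0.15 between HEC normal and BEC normal, both with an adjusted p too small for DESeq2 to represent. In HECs it was −0.98 ± 0.22 with tumour (adjusted p 5.49e-05), just short of the fold required, and it was called lower with edgeR, with TMM scaling and without HEC normal 2 or HEC tumour 2. The interaction was 5.71 ± 0.26 (8.11e-105).

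Mmp14, which encodes MT1-MMP, the activator of pro-MMP2 at the cell surface, differed little by comparison. It had 9786, 8936 and 10359 normalised counts in BEC normal, 10741, 11570 and 10640 in BEC tumour, 12406, 13045 and 12806 in HEC normal and 8624, 8282 and 7990 in HEC tumour. No change reached the fold required: the log2 fold change was 0.18 ± 0.07 with tumour in BECs (DESeq2, adjusted p 0.0168) and −0.62 ± 0.07 in HECs (3.13e-18). The interaction was −0.80 ± 0.10 (adjusted p 1.1e-15). In BEC tumour Mmp14 stayed near its BEC normal level while transcripts of its substrate Mmp2 were lower.

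Mmp24, which encodes MT5-MMP, was one of the few genes higher in HECs. It had 71.4, 70.6 and 53.8 normalised counts in BEC normal, 149, 189.5 and 171 in BEC tumour, 305, 401 and 441 in HEC normal and 563, 727 and 657 in HEC tumour. The 4 groups were in this order with no overlap. The log2 fold change was 2.55 ± 0.22 between HEC normal and BEC normal (DESeq2, adjusted p 3.67e-29), 1.93 ± 0.21 between HEC tumour and BEC tumour (5.47e-20), 1.38 ± 0.23 with tumour in BECs (6.7e-09) and 0.76 ± 0.20 with tumour in HECs (0.000747). Exons of Mmp24 overlap BC029722 on the opposite strand, which averaged 3752, 7731, 12194 and 12400 normalised counts in these groups. BC029722 thus rose by 1.70 ± 0.09 between HEC normal and BEC normal, and whether part of the Mmp24 values are its reads was not tested. Mmp16, Mmp17 and Mmp25, the remaining members, had at most 205 normalised counts in any endothelial library. Mmp16 and Mmp25 were at 0 in every HEC library, and were at least 15.6-fold and at least 3.85-fold lower in HEC normal than in BEC normal (floor over the group mean), the call of Mmp25 being lost without any 1 of the BEC normal libraries.

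The chromosome 9 cluster moved in opposite directions in BECs. Mmp12, the macrophage metalloelastase, had 4965, 4171 and 2681 normalised counts in BEC tumour and 0 in all 9 other endothelial libraries. It was at least 355-fold higher in BEC tumour than in BEC normal and than in HEC tumour (DESeq2, adjusted p 4.18e-31 and 1.19e-30). Mmp8, the neutrophil collagenase, had 925, 829.9 and 299 in BEC tumour and 0 in BEC normal, at least 61.7-fold higher (adjusted p 0.000266). Mmp27 had 230.04, 179 and 58.4 against 0, at least 14.0-fold higher (adjusted p 0.00368), and this call was lost without any 1 of the BEC tumour libraries (adjusted p 0.0503 to 0.076). BEC tumour 3 was lowest for each of Mmp12, Mmp8 and Mmp27.

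Mmp13, a collagenase, rose from 62.6, 36.5 and 44.7 normalised counts in BEC normal to 250.5, 151 and 105 in BEC tumour, with a log2 fold change of 1.81 ± 0.37 (DESeq2, adjusted p 5.15e-06). In HECs it had 87.2, 85.5 and 83.1 without and 194, 196 and 135 with tumour (1.04 ± 0.37, adjusted p 0.0158). The groups did not overlap in either cell type, and the interaction of −0.77 ± 0.52 was not called (adjusted p 0.23). The call in HECs was lost without HEC normal 2 (1.04, adjusted p 0.0514), HEC normal 3 (1.02, 0.0563), HEC tumour 1 (0.96, 0.0744) or HEC tumour 2 (0.95, 0.0804).

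The stromelysin Mmp3 went the other way in BECs, from 3229, 3268 and 3232 normalised counts in BEC normal to 264, 437 and 258 in BEC tumour (−3.34 ± 0.21, DESeq2, adjusted p 3.22e-54). Its HEC libraries lay between these, with 541 to 586 without and 504 to 765 with tumour, and the groups overlapped (0.11 ± 0.21, adjusted p 0.745). The collagenase Mmp1a had 52.9, 67.1 and 107 in BEC normal and 0 in BEC tumour and HEC normal, at least 6.81-fold lower in each. In HEC tumour it had 0, 7.89 and 4.43, and its calls as higher than in HEC normal (adjusted p 0.0296) and BEC tumour (0.0149) have both groups under the floor by DESeq2 and were lost without any of several libraries. The stromelysin Mmp10 averaged 34.5 in BEC normal and 6.99 in BEC tumour, with overlapping groups (−2.31 ± 0.99, adjusted p 0.0379), and its call was lost with edgeR and without most single libraries.

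**Figure D3:**
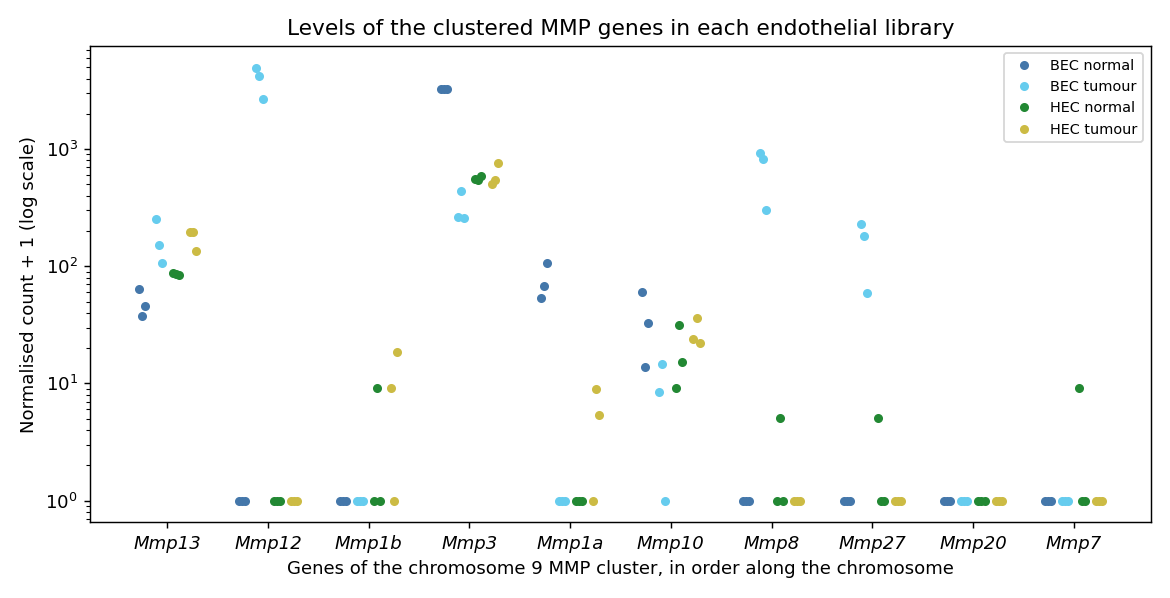
Normalised counts + 1 on a log axis for the 10 MMP genes of the chromosome 9 cluster, in chromosomal order, with 1 point per endothelial library. Mmp12, Mmp8 and Mmp27 are above the baseline in BEC tumour and at or near it elsewhere, while Mmp3 and Mmp1a are highest in BEC normal.

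Markers of macrophages and monocytes were higher in the same BEC tumour libraries. The 9 markers summed to 1614 to 2213 CPM in BEC tumour, 114 to 136 in BEC normal, 485 to 510 in HEC normal and 357 to 375 in HEC tumour. Cd68 alone made up 477 to 503 CPM of the sum in HEC normal. Lyz2 ran from 567 to 919 CPM in BEC tumour and did not pass 6.62 CPM in any other group, and C1qa ran from 57.1 to 103 CPM in BEC tumour and did not pass 0.0561 elsewhere. T and B cell markers summed to 24.3 to 42.6 CPM in BEC tumour and to at most 0.925 elsewhere. Neutrophil markers summed to 4.08 to 4.69 CPM in BEC tumour and 0.0675 to 0.321 in BEC normal, and to 5.81 to 9.41 CPM in HECs, where Ly6g made up 3.76 to 5.41 CPM. Csf3r, also of this list, was at 0.699 to 1.69 CPM in BEC tumour and at most 0.137 CPM in HECs. Ly6g, S100a8, S100a9 and Cxcr2 went the other way, each with a higher mean in both HEC groups than in BEC tumour. S100a8 ran from 2.66 to 3.38 CPM in HEC tumour, against 0.391 to 0.706 CPM in BEC tumour. Within BECs, Cxcr2 averaged 0.0369 CPM with tumour and 0.0419 CPM without. The part of macrophage, T and B cell and neutrophil RNA in the rise of Mmp12, Mmp8, Mmp27 and Mmp13 was not tested. The 10 endothelial markers summed to 3227 to 3514 CPM in BEC normal and 2601 to 2669 in BEC tumour. Among them Kdr (−2.34 ± 0.08) and Esam (−1.87 ± 0.06) fell with tumour in BECs, while Cdh5 was at −0.05 ± 0.05 (DESeq2, adjusted p 0.405). Epithelial markers, which EO771 cells also express, summed to 20.0 to 93.6 CPM in BEC tumour against 3.61 to 6.92 in BEC normal, with Krt8 at 0.526 to 33.2 against at most 0.135 CPM. In HECs the same sum was 27.9 to 34.1 CPM, of which Krt19 made up 26.4 to 32.7 CPM. EO771 cells had Mmp24 and Mmp13 at 260 and 39.3 mean TPM with vehicle, and the part of tumour cell RNA in the rise of these genes in BEC tumour was not tested.

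Among the ADAMTS proteases that cut proteoglycans, Adamts1 was lower with tumour in BECs and higher with tumour in HECs. It had 25194, 23196 and 22815 normalised counts in BEC normal, 5592, 5781 and 5583 in BEC tumour, 5814, 5244 and 5441 in HEC normal and 9702, 9863 and 9872 in HEC tumour. BEC normal was highest and HEC tumour next, with no overlap between tumour and normal in either cell type. The log2 fold change was −2.07 ± 0.06 with tumour in BECs (DESeq2, adjusted p 1.71e-280), 0.84 ± 0.06 in HECs (1.37e-44, under the fold required) and −2.11 ± 0.06 between HEC normal and BEC normal (4.58e-290). The interaction was 2.91 ± 0.08 (2.68e-273).

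Adamts5, an aggrecanase that lies beside Adamts1 on chromosome 16, had 4124, 3496 and 3352 normalised counts in BEC normal, 256, 213 and 363 in BEC tumour, 58.8, 87.5 and 91.7 in HEC normal and 109, 165 and 153 in HEC tumour. Its log2 fold change was −5.53 ± 0.24 between HEC normal and BEC normal (DESeq2, adjusted p 4.79e-112), −3.72 ± 0.23 with tumour in BECs (2.93e-57) and 0.84 ± 0.25 in HECs (0.00395, under the fold required). As with Adamts1, the interaction was called (4.56 ± 0.34, adjusted p 7.29e-39). Adamts4, the other main aggrecanase, had 13501, 12432 and 12080 in BEC normal, 2022, 2212 and 2024 in BEC tumour, 4126, 3514 and 3679 in HEC normal and 2760, 2611 and 2731 in HEC tumour. It was lower with tumour in both cell types, by −2.60 ± 0.08 in BECs (2.82e-228) and −0.48 ± 0.08 in HECs (3.02e-08), and was −1.75 ± 0.08 in HEC normal against BEC normal.

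Adamts9, another versican-cutting protease, had 1276, 1217 and 1052 normalised counts in BEC tumour and 338, 278 and 391 in HEC tumour, a log2 fold change of −1.82 ± 0.17 (DESeq2, adjusted p 2.04e-25). The difference was similar in size without tumours, −1.88 ± 0.17, and its interaction was 0.07 ± 0.24 (adjusted p 0.847). Its exons overlap A730049H05Rik and Gm15737.

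Of the ADAMTS proteases that cut cartilage oligomeric matrix protein, Adamts7 was highest in HEC normal. It had 1055, 951 and 1144 normalised counts in BEC normal, 895, 893 and 1021 in BEC tumour, 2145, 2205 and 2170 in HEC normal and 822, 758 and 1050 in HEC tumour. HEC normal stood apart, and the other groups overlapped. The log2 fold change was 1.05 ± 0.13 between HEC normal and BEC normal (DESeq2, adjusted p 1.89e-14; 0.97 without BEC normal 2, under the fold required) and −1.31 ± 0.13 with tumour in HECs (6.72e-21). The interaction was −1.14 ± 0.19 (1.15e-08), and the overlapping gene Tbc1d2b changed by −0.53 ± 0.07 with tumour in HECs. Adamts12, its relative, was −2.03 ± 0.17 in HEC normal against BEC normal and 0.75 ± 0.17 with tumour in HECs.

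The procollagen N-propeptidase Adamts14 fell with tumour in both cell types. It had 1198, 1100 and 1231 normalised counts in BEC normal against 186, 292 and 164 in BEC tumour (−2.46 ± 0.21, DESeq2, adjusted p 2.27e-31) and 498, 433 and 509 in HEC normal against 182, 159 and 182 in HEC tumour (−1.46 ± 0.21, 9.18e-11). Its interaction of 0.99 ± 0.30 was just under the fold required (adjusted p 0.00238), and it was called with the replicate block and without any 1 of 5 libraries. Adamts2, of the same group, had 726 to 936 normalised counts in BEC normal and at most 225 in any other endothelial library, with a log2 fold change of −4.94 ± 0.66 in HEC normal and −2.92 ± 0.64 in BEC tumour. Adamts6, associated with fibrillin, had 35.2, 59.2 and 39.2 in BEC tumour and 122, 93.7 and 104 in HEC tumour, where it was higher (1.26 ± 0.31, adjusted p 0.000183), and it was −2.87 ± 0.30 with tumour in BECs.

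Other calls, several of them on low values, were as follows. Between HEC normal and BEC normal Adamts6 was −1.68 ± 0.29, Adamts14 −1.29 ± 0.20 and Mmp3 −2.53 ± 0.21. Adamts17 averaged 58.6 normalised counts in BEC normal and 1.27 in HEC normal, and Adamts16 averaged 6.99 and 0, with both groups under the floor. The call of Adamts17 was lost without BEC normal 1 or 2, and that of Adamts16 without BEC normal 2 or 3 or any 1 of the BEC tumour libraries. Between HEC tumour and BEC tumour Mmp15 was −1.49 ± 0.21, Adamts2 −2.18 ± 0.66 and Mmp9 −1.83 ± 0.69 (DESeq2, adjusted p 7.3e-12, 0.00262 and 0.017). Without BEC tumour 2 neither Adamts2 nor Mmp9 was called, and Mmp9 was not called without HEC tumour 2 either. Mmp27, Mmp8, Mmp16 and Adamts16 were at 0 in HEC tumour, at least 14.0, 61.7, 1.56 and 2.92-fold lower. The calls of Mmp27 and Adamts16 were lost without any 1 of the BEC tumour libraries. Mmp25 was called there with both groups under the floor, and not without any 1 of the BEC normal libraries. With tumour in BECs Mmp16 was −3.33 ± 0.79, and Mmp25 averaged 3.53 against 42.8, a call lost without any 1 of the BEC normal libraries. With tumour in HECs Mmp17 had 0, 18.7 and 8.85 against 53.8, 17.3 and 46.8 (adjusted p 0.0375) and Mmp9 had 13.9, 10.9 and 12.2 against 40.6, 57.0 and 19.1 (0.0479), and for each of these leaving out any of several libraries lifted the adjusted p over 0.05.

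Other genes tested were not called in any pairwise endothelial comparison, namely Mmp11, Mmp28, Mmp14, Adamts10 and Timp1. Their log2 fold changes ran from −0.70 to 0.62. Mmp11, stromelysin-3, was among the more abundant proteases, with 1518 to 1943 normalised counts in BEC normal and 2524 to 2588 in HEC normal. Its exons overlap Chchd10. Under the filter were Adamts3, Adamts8, Adamts13, Adamts15, Adamts18, Adamts19, Adamts20, Mmp1b, Mmp7, Mmp20, Mmp21 and Timp4. Of these Adamts13, Mmp20 and Mmp21 were at 0 in all 12 endothelial libraries, and the highest value of any was 30 deposited units, for Timp4.

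In every endothelial group Timp1 (327 to 561 mean TPM) and Timp2 (202 to 567) were above the leading protease, whereas Timp3 was above it in BEC normal alone. Timp2, which at low level helps MMP14 activate pro-MMP2, had 55716, 60989 and 59927 normalised counts in BEC normal, 31634, 32743 and 33030 in BEC tumour, 20895, 21178 and 22101 in HEC normal and 23045, 23231 and 23245 in HEC tumour. The groups did not overlap. Its log2 fold change was −1.46 ± 0.05 between HEC normal and BEC normal (DESeq2, adjusted p 2.39e-210), −0.86 ± 0.05 with tumour in BECs (2.13e-73) and 0.12 ± 0.05 in HECs (0.0417).

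Timp3, the matrix-bound inhibitor, had 39977, 37335 and 37028 normalised counts in BEC normal, 11861, 11345 and 11158 in BEC tumour, 5824, 5775 and 6432 in HEC normal and 8681, 8997 and 9808 in HEC tumour. It fell with tumour in BECs (−1.73 ± 0.07, DESeq2, adjusted p 7.44e-140) and was higher with tumour in every HEC library (0.61 ± 0.07, 5.49e-17, under the fold required). The interaction was 2.34 ± 0.10 (1.19e-125), and the log2 fold change was −2.66 ± 0.07 between HEC normal and BEC normal. The overlapping gene Syn3 averaged 23.8 to 55.8 normalised counts over the 4 groups. Timp1, which binds pro-MMP9, had 12716 to 13839 in BEC normal, 7325 to 9411 in BEC tumour, 9183 to 9845 in HEC normal and 7136 to 7354 in HEC tumour. Timp1 changed by −0.63 ± 0.09 with tumour in BECs (1.67e-11) and −0.41 ± 0.09 in HECs (5.33e-05). Timp4 was below the filter, with at most 33.2 normalised counts in any endothelial library.

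Summed TPM of the TIMPs over summed TPM of the MMPs and ADAMTS proteases was 1.80 ± 0.06 in BEC normal and 3.02 ± 0.35 with tumour, and in HECs 2.75 ± 0.09 without and 2.73 ± 0.06 with tumour (SD over 3 libraries). BEC normal was below every other endothelial library, between 1.74 and 1.86, although its TIMP transcripts were the most abundant. In EO771 cells the ratio was 0.923 ± 0.043 with vehicle and 1.80 ± 0.02 with 12-HETE. These ratios describe transcripts, and no test was run on them.

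**Figure D4:**
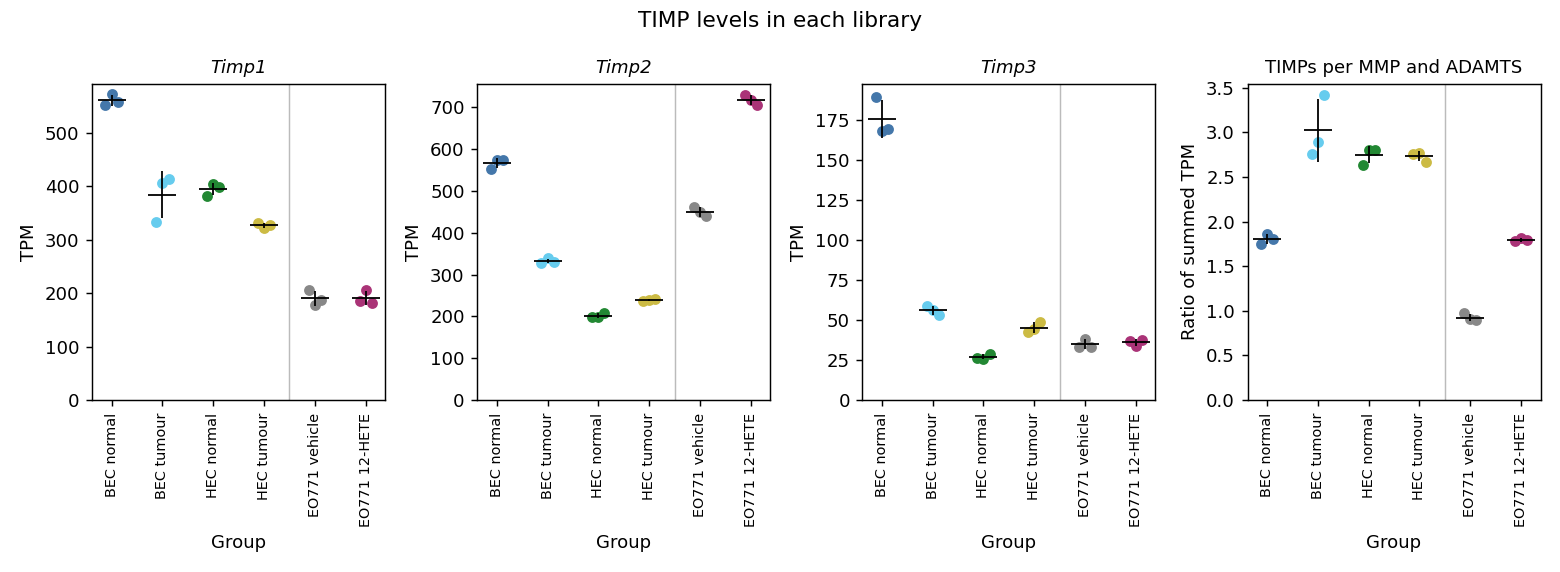
TPM of Timp1, Timp2 and Timp3 and the ratio of summed TIMP to summed MMP and ADAMTS TPM in each library (points), with mean and SD (bars, n = 3). The 4 endothelial groups are left of the grey line and the EO771 groups right of it. Timp3 is highest in BEC normal, Timp2 is higher with 12-HETE than with vehicle, and the ratio lies between 0.892 and 0.971 with vehicle and between 1.78 and 1.82 with 12-HETE.

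In EO771 cells the comparison asked what 12-HETE does to the tumour cells. Of the 19 genes tested, 5 were lower with 12-HETE and 0 higher by DESeq2, where 7.79% and 2.38% of all 11602 genes were lower and higher. Without the fold threshold, at an unadjusted p under 0.05, 7 were lower and 5 higher, and edgeR called 1 higher, Adamts15. The share of all genes at these other settings is not given here, so these counts have no background. The median log2 fold change of the 19 genes was −0.11, against 0.00 over all genes. The 5 leading proteases with vehicle were Mmp24, Mmp14, Adamts4, Mmp13 and Mmp10. Epithelial markers summed to 3243 to 4251 CPM with vehicle and 2184 to 2240 CPM with 12-HETE, and their part in the results was not tested.

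Mmp24 had 6690, 5989 and 6573 normalised counts with vehicle and 2794, 3018 and 2871 with 12-HETE (−1.15 ± 0.09, DESeq2, adjusted p 7.43e-37). Its partner on the opposite strand, BC029722, averaged 296 with vehicle and 409 with 12-HETE (0.46 ± 0.16, adjusted p 0.0112). Whether part of the Mmp24 values in EO771 cells are reads of BC029722 was not tested. The collagenase Mmp13 had 446, 667 and 547 with vehicle and 155, 151 and 127 with 12-HETE (−1.94 ± 0.19, adjusted p 9.97e-23). All vehicle libraries were above all 12-HETE libraries for both genes.

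Adamts1 had 843, 934 and 885 normalised counts with vehicle and 372, 380.4 and 366 with 12-HETE (−1.25 ± 0.11, DESeq2, adjusted p 4.87e-29). Adamts14 had 355, 392 and 321 with vehicle and 135, 130.1 and 123 with 12-HETE (−1.46 ± 0.16, adjusted p 1.05e-18). Again the groups did not overlap. Mmp3 was called at −1.41 ± 0.55 (adjusted p 0.0248) on 28.7, 109 and 32.8 against 27.7, 18.7 and 17.7, and vehicle 2 carried this call. Without vehicle 2 the change was −0.53 (adjusted p 0.321), and without 12-HETE 2 or 12-HETE 3 the adjusted p was 0.104 or 0.114.

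Several genes moved the other way by less than the fold required. Timp2 had 9632, 9449 and 8650 normalised counts with vehicle and 15225, 15197 and 14905 with 12-HETE (0.71 ± 0.08, DESeq2, adjusted p 2e-17). Mmp28, or epilysin, had 413, 506 and 384 against 749, 709 and 666 (0.70 ± 0.14, adjusted p 4.74e-06). Mmp14 was at 0.19 ± 0.07 (adjusted p 0.0196) and Adamts10 at 0.42 ± 0.16 (0.0217), while Adamts4 was at −0.34 ± 0.12 (0.0168). Timp1 (0.05 ± 0.12) and Timp3 (0.08 ± 0.12) had overlapping groups, and Timp4 had 0 counts in all 6 libraries.

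The other genes tested in EO771 were not called and had adjusted p-values over 0.05 in DESeq2. Adamts15 was at 1.22 ± 0.56 (adjusted p 0.0635) on 4.95 to 11.5 normalised counts with vehicle and 16.8 to 19.5 with 12-HETE. Mmp2, Mmp10, Mmp11, Mmp15, Adamts7 and Adamts20 lay between −0.82 and 0.46. Of the 27 genes under the filter none had more than 18 counts in any EO771 library, and Adamts5, Adamts9, Adamts16, Adamts19, Mmp1b, Mmp16 and Timp4 had 0 in all 6. Mmp12, at most 10 counts, and Mmp8, at most 1 count, were thus near 0 in cultured EO771 cells. In the BEC tumour libraries, which also held macrophage markers, they averaged 3939 and 685 normalised counts. Which cells these transcripts came from was not tested.

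**Figure D5:**
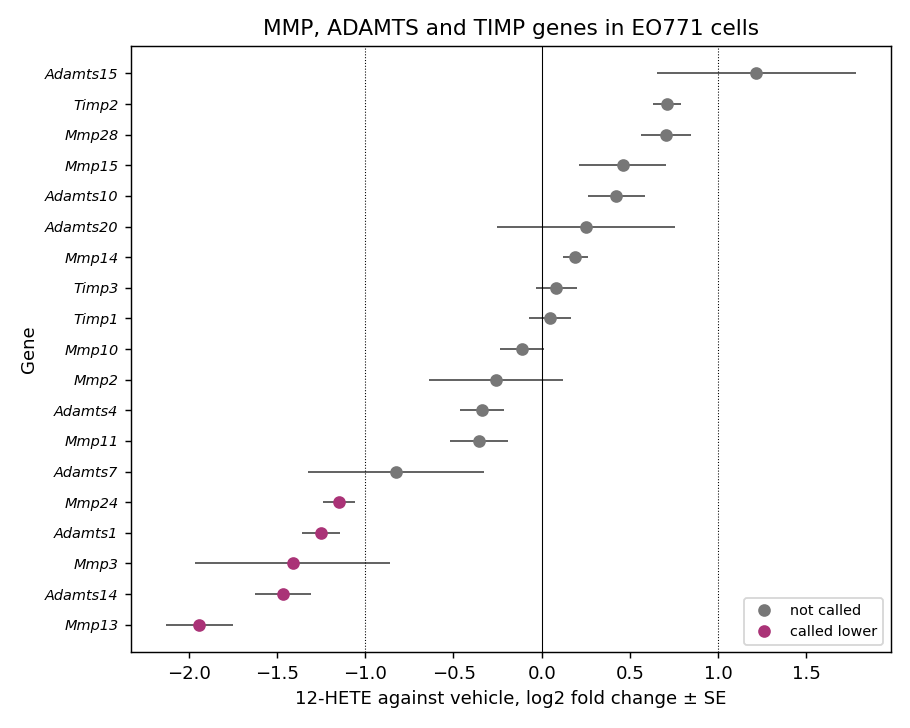
Log2 fold change ± SE of 12-HETE against vehicle for the 19 genes tested in EO771 cells, sorted by value, with dotted lines at −1 and 1. The 5 genes called lower are Mmp13, Adamts14, Mmp3, Adamts1 and Mmp24, and Timp2 lies at 0.71.

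Substrates, activators and relatives of these proteases were counted in fixed lists with the same calls. For comparison, 17.2% of all genes tested were higher and 15.2% lower in HEC normal than in BEC normal. Between the tumour groups these shares were 11.3% and 10.8%. With tumour they were 12.5% and 10.9% in BECs and 4.66% and 3.24% in HECs, and with 12-HETE 2.38% and 7.79% in EO771 cells. Several counts below are near these shares and are no result about their lists. Of 18 substrates tested, 0 were higher and 14 lower in HEC normal than in BEC normal, and between the tumour groups 0 were higher and 12 lower in HECs. The proteoglycan gene Bgn was −7.88 ± 0.15 and −5.52 ± 0.15 in these comparisons. With tumour in BECs 1 substrate was higher and 10 lower, and in HECs 1 was higher and 2 lower. The list includes fibroblast markers such as Col1a1 and Dcn, which are also in the sums given above.

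Of 14 inhibitors and activators tested, 3 were higher and 4 lower in HEC normal than in BEC normal, and between the tumour groups 7 were higher and 3 lower in HECs. Pcolce, which enhances procollagen processing, was −7.26 ± 0.19 and −5.21 ± 0.19, and Tfpi2, an inhibitor of serine proteases, was 4.06 ± 0.22 in HEC normal. Plat, which encodes tissue plasminogen activator, was 2.21 ± 0.08 in HEC tumour against BEC tumour. With tumour 2 of the 14 were higher and 5 lower in BECs, and 2 higher and 0 lower in HECs. In BECs the urokinase gene Plau changed by −2.00 ± 0.09 and Tfpi2 by 3.54 ± 0.22, and in HECs Plat rose by 1.04 ± 0.08.

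Of 10 ADAM proteases, membrane-bound relatives of the ADAMTS family, 1 was higher and 3 lower in HEC normal than in BEC normal, and between the tumour groups 0 were higher and 3 lower in HECs. With tumour 2 were higher and 2 lower in BECs, and 3 higher and 0 lower in HECs. Adam8 rose with tumour in BECs by 2.86 ± 0.16, and Adam12 fell there by 2.01 ± 0.12 and rose in HECs by 2.26 ± 0.12, each on the log2 scale. The interaction of Adam12 was 4.26 ± 0.17 (DESeq2, adjusted p 1.3e-135). Of 7 ADAMTS-like proteins, which lack the protease domain, 1 was higher and 2 lower in HEC normal than in BEC normal, and between the tumour groups 1 was higher and 4 were lower in HECs. Adamtsl5 was 1.04 ± 0.08 in the first of these. With tumour 3 were higher and 2 lower in BECs, and 0 higher and 1 lower in HECs.

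In EO771 cells 1 of 8 inhibitors and activators was higher and 1 lower with 12-HETE. Lrp1, a receptor that clears MMPs and TIMPs from the cell surface, rose from 6472 ± 261 to 13407 ± 434 normalised counts (SD, 1.05 ± 0.08, DESeq2, adjusted p 9.3e-40). Of 13 substrates 1 was higher, Dcn at 1.02 ± 0.16, and 3 were lower, among them the brain proteoglycan gene Bcan at −2.60 ± 0.37. Of 5 ADAM proteases 0 were higher and 1 was lower, Adam8, and of 4 ADAMTS-like proteins none was called.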

How the data were processed

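Per the labels and the methods of the study, the authors used STAR for alignment to GRCm38 and featureCounts for counting. What they deposited for the endothelial libraries was treated as estimated counts, since these are whole numbers whose low values rise in steps of about 3.70, so that 1 unit is not 1 fragment. For EO771 the authors deposited raw counts. Library kits are named differently in the labels and the methods, the use of strand in counting is not given in the sources used here, and exons of 13 of the 46 genes overlap another gene.

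Genes with a mean of at least 10 were tested with DESeq2 1.42.0 in R 4.3.3 by a two-sided Wald test, with group as the only term and Benjamini-Hochberg adjustment over all genes tested. One fit held the 12 endothelial libraries and a second the 6 EO771 libraries. Calls needed an adjusted p under 0.05 and a log2 fold change over 1 in size. Values are DESeq2 normalised counts, and log2 fold changes are given ± SE. TPM used exon lengths of GENCODE M21. A fold against a group at 0 is a bound against a mean of 3 steps, or 3 counts in EO771, which covers counting error only. An exact permutation test of 3 against 3 libraries cannot give a two-sided p under 0.1. The scripts were tested on simulated data.

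The alternatives were edgeR 4.0.16, TMM scaling, other filters on low values, calls by adjusted p alone, values divided by their step, fits of only the groups compared, a replicate block, and leaving out each library. The 6 called genes with the largest Wald statistic in each direction of a comparison are given by library, the others by fold change or range. Mmp14 and further genes given by library were chosen after their values were seen. Related genes are given as counts, with values for those of the 2 largest statistics in each direction that can be given, and some items are not reported here. The genes, lists and tests were chosen with earlier results of these data known. RefSeq promoters were found for 32 of the 46 genes.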

Additional observations from a re-analysis of the deposited data

Results flagged for a closer look

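By the interaction term (DESeq2, change in HECs less that in BECs, log2 ± SE), 18 of the 34 genes tested changed differently with tumour. Over all genes tested 11.3% were called positive and 12.2% negative. In BECs the change sets fat pad against tumour tissue, so tissue and digestion cannot be told apart from a response to tumour. With all groups above the floor, the differences were 5.71 ± 0.26 for Mmp15, 4.56 ± 0.34 for Adamts5, 3.45 ± 0.30 for Mmp3, 3.04 ± 0.28 for Mmp2, 2.94 ± 0.43 for Adamts6, 2.91 ± 0.08 for Adamts1, 2.84 ± 0.46 for Mmp23 and 2.77 ± 0.93 for Adamts2. They were 2.34 ± 0.10 for Timp3, 2.12 ± 0.11 for Adamts4, 1.88 ± 0.46 for Mmp19, 1.06 ± 0.24 for Adamts12 and −1.14 ± 0.19 for Adamts7. The call of Adamts12 was lost without BEC normal 1 or BEC tumour 3.

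For Mmp1a (13.37), Adamts17 (7.53), Mmp8 (−14.60), Mmp12 (−14.24) and Mmp27 (−12.47) some groups were at or under the floor, so the size of the fitted difference is not resolved. The interaction of Mmp12 had an adjusted p of 0.0529 without BEC tumour 1, 0.0501 without BEC tumour 2 and 1 with edgeR. That of Adamts17 was not called without BEC normal 1, BEC normal 2, BEC tumour 3 or HEC tumour 1. That of Mmp8 had an adjusted p of 0.118 without HEC normal 2, the HEC normal library with 4.07 normalised counts of Mmp8. That of Mmp27 was over 0.05 without HEC normal 1 (0.214) or any 1 BEC tumour library (0.0743 to 0.0982).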

How the results depend on the processing

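TMM scaling shifted the median of all genes by at most 0.06 on the log2 scale. Stability was counted in checks, each of a gene in a comparison under another tool, scaling, division by the step, block or left-out library. The checks cover the TIMPs and the called genes with the largest Wald statistics in each direction of a comparison, by the rule given above. Called genes given by fold change only were left out. Calls of several of these, such as Mmp25 and Adamts16, were lost with a library left out. Of the checks, 891 kept their direction and side of the thresholds, 55 were no longer called and 1 was newly called (Timp2, interaction). A further 1 turned: Timp1 in EO771, at −0.0133 without 12-HETE 2 (up to 0.115 without vehicle 1) against 0.0458. Other genes were called only under some alternatives, among them Mmp15 in HEC tumour against HEC normal, the interaction of Adamts14, Adamts17 in BEC tumour against BEC normal and Adamts15 in EO771. Counts that moved by over 1.5 times were mostly small ones. The share of all genes called is not given here for any alternative, so the counts that follow have no background. For HEC tumour against HEC normal, 2 higher became 1 with edgeR, a mean of at least 50, the replicate block, values divided by their step, only the groups compared, or groups under the floor not counted (chosen after seeing the data), and 8 by adjusted p alone. Its 4 lower became 2 at a mean of at least 50 or with values divided by their step, and 10 by adjusted p alone. Leaving out 1 library gave 0 to 2 higher and 2 to 4 lower.

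For HEC normal against BEC normal, 2 higher became 4 with no filter and 5 by adjusted p alone, and 1 to 3 with 1 library left out. For HEC tumour against BEC tumour, 13 lower became 8 at a mean of at least 50, 3 higher became 7 by adjusted p alone, and 1 library left out gave 2 to 5. The 4 negative interactions became 2 with the replicate block, and 2 to 5 with 1 library left out. In EO771, 0 higher became 1 with edgeR, 4 by adjusted p alone, and 0 to 1 with 1 library left out. The cause of these moves was not tested, except that a higher minimum tests fewer genes. Equal replicate numbers were not shown to pair libraries, since the correlation of deviations ran from −0.01 to 0.13 in the endothelial groups and from 0.10 to 0.31 in EO771. Depth limits the genes near the floor, whose folds are given as bounds.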
